A study of Mus musculus with 12 samples.

Results

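The blood-brain barrier carriers Slco1c1, Slco1a4, Slco2b1 and Slc22a8, which transport organic anions and thyroid hormone, were followed in sorted cortical endothelial cells of adult mice. They were taken by symbol from the deposited gene table, where each stood on a single row, so that 4 of 21638 genes are described here. All 4 passed the minimum of a mean count of 10 over the libraries. There were 12 libraries in 4 groups of 3. The first group was wild type (WT). The Hdac2 ECKO group carried Hdac2lox/lox with Cdh5CreERT2 and lacks, by its label, the histone deacetylase gene Hdac2 in endothelium. The Ezh2 ECKO group carried Ezh2lox/lox with Cdh5CreERT2 and lacks, by its label, the Polycomb methyltransferase gene Ezh2 in endothelium. The β-catenin GOF group carried Ctnnb1lox/lox with Cdh5CreERT2 and has, by its label, constitutively active β-catenin in endothelium. Cdh5CreERT2 is a Cre recombinase that tamoxifen switches on in cells using the VE-cadherin promoter, in every vascular bed and not in brain alone. All 3 mutants received 5 tamoxifen doses of 75 mg/kg, and brains were taken 2 months later. The sources used here do not state whether WT mice carried Cre or received tamoxifen, the age in weeks, or whether each library is 1 animal, so p-values measure the spread between these libraries. The sorting gate took CD31+ cells that lacked CD41 and CD45, which keeps endothelium and removes platelets and leukocytes.

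Brain capillary endothelium is sealed by tight junctions, and solutes that cannot diffuse through it depend on membrane carriers. The Slco genes encode organic anion transporting polypeptides, which exchange large amphipathic anions such as bile acids, steroid conjugates, drugs and thyroid hormone. Slco1c1 encodes the carrier that brings thyroxine into rodent brain endothelium. Slco1a4 encodes a broad carrier of bile acids, steroid conjugates and drugs that is abundant in rodent brain capillaries. Slco2b1 encodes a carrier of steroid sulfates and drugs. Slc22a8 encodes the organic anion transporter OAT3, an anion exchanger that at the brain endothelium takes up organic anions from the brain side.

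Libraries held 24781070 to 36109975 counts. The smallest level resolved, 3 counts of a library, was thus 0.0831 to 0.121 per 1000000 counts, before any scaling. Levels are given as CPM, counts per 1000000 counts of the library after scaling by trimmed mean of M-values (TMM). Endothelial markers were abundant in every library, with the 10 markers summing to 11847 to 20795 CPM. None of the targeted genes passed a test in its own mutant. Hdac2 averaged 129 ± 30.1 CPM in WT against 96.5 ± 15.2 CPM in its knockout (SD, n = 3; log2 fold change, log2FC, of -0.42, edgeR adjusted p 0.22), and β-catenin GOF, where Hdac2 is not the target, had as low a mean (96.2 ± 10.1 CPM, log2FC -0.43, adjusted p 0.88). For Ezh2 the WT mean was 6.75 ± 3.52 CPM, and libraries labelled Ezh2 ECKO averaged 8.92 ± 3.36 CPM (log2FC 0.40, edgeR adjusted p 0.61). The fold had a 95% interval of 0.669 to 2.61. The mean was not lower there than in WT, so these values do not bear out the label. Ctnnb1 averaged 654 ± 138 CPM in WT against 583 ± 109 CPM in β-catenin GOF (log2FC -0.17, adjusted p 0.96). Values per gene do not resolve a recombined exon, so none of these shows recombination or its absence. Replicate 2 of libraries labelled Ezh2 ECKO stood apart, with the lowest scaling factor (0.823) and the lowest quality weight (0.2625) of the 12, and results that rest on it are given without it. Log2FC values ran with gene length, with Spearman's rho of 0.438 for Hdac2 ECKO, 0.288 for libraries labelled Ezh2 ECKO and 0.141 for β-catenin GOF, each against WT and across 12577 genes, which are not independent replicates.

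On GRCm38, Slco1c1 (ENSMUSG00000030235.17) spans chr6:141524368-141570177 on the plus strand with 14 merged exons, and Slco1a4 (ENSMUSG00000030237.14) spans chr6:141805440-141856199 on the minus strand with 17. Both lie in 1 cluster of family genes on chromosome 6, in the order Slco1c1, Slco1b2, Slco1a4, Slco1a1, Slco1a6 and Slco1a5. Slco2b1 (ENSMUSG00000030737.17) spans chr7:99657804-99711340 on the minus strand with 17 merged exons. Slc22a8 (ENSMUSG00000063796.9) spans chr19:8591254-8611835 on the plus strand with 12 merged exons, and Slc22a6, which encodes the related kidney carrier OAT1, follows 26.8 kb downstream of its start. The promoters of the 2 most abundant members and of the member that passed a test are shown here, as 250 bases before to 50 bases after the RefSeq start on GRCm38.p6, read 5′ to 3′ on the gene's strand. Capitals mark a match to 1 of 4 motifs searched on both strands.
Slco1c1: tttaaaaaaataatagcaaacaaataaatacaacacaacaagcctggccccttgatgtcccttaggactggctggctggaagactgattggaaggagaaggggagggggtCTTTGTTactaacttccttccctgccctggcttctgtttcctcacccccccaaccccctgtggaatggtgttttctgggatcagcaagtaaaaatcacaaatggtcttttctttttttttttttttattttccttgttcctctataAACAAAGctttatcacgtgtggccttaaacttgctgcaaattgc
Slco1a4: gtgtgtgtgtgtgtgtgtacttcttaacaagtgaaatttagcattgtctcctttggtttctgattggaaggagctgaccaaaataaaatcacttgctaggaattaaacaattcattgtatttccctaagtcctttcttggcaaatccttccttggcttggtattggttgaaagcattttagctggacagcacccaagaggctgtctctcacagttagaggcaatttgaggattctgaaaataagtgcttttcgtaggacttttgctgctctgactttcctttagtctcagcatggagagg
Slco2b1: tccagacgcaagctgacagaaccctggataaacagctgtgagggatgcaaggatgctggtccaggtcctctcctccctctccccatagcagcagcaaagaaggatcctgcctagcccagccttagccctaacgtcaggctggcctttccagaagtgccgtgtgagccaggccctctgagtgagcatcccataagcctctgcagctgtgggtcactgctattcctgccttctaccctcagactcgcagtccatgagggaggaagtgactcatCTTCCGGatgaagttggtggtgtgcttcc
These windows lie at chr6:141524104-141524403 (plus strand), chr6:141856171-141856470 (minus strand) and chr7:99711291-99711590 (minus strand). The motifs were the TCF/LEF letters CTTTGAT or CTTTGAA, through which β-catenin acts, the ETS letters CCGGAAG, the SOX letters AACAAAG or AACAATG and the nuclear receptor half-site AGGTCA. SOX and TCF/LEF letters share CTTTG on opposite strands. Slco1c1 held 2 SOX matches, beginning at positions -140 on the minus strand and 6 on the plus strand relative to the start, and 9.36% of 32851 RefSeq promoters of this length held at least 1. The first of 3 RefSeq promoters of Slco2b1 held an ETS match at position 21 on the minus strand, as did 8.86% of promoters. No window of the 4 genes held the TCF/LEF letters (8.65% of promoters) or AGGTCA (16.3%). A match is a run of letters and does not show binding, and the absence of one says only that the letters are not in the window.

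The members kept 1 order of level in all 12 libraries when compared per kilobase of gene length (CPM per kilobase): Slco1a4, then Slco1c1, then Slc22a8, then Slco2b1. In WT the levels were 495 ± 115 for Slco1a4, 292 ± 69.1 for Slco1c1, 85.4 ± 36.7 for Slc22a8 and 10.1 ± 0.955 for Slco2b1 (SD, n = 3). Slco1a4 ranked 136 and Slco1c1 ranked 261 among all genes by mean WT level per kilobase, whereas Slco2b1 ranked 3585. Neighbours in this order did not overlap in any group except Slco1a4 and Slco1c1 in libraries labelled Ezh2 ECKO, where replicate 2 had the lowest value of both. Of the summed level of the 4 carriers, Slco1a4 made up 45.8% to 64.3%, Slco1c1 29.4% to 45.0%, Slc22a8 4.07% to 11.4% and Slco2b1 0.811% to 2.35%, over the 12 libraries. Counts behind these values were large, from 1427 for the lowest Slco2b1 library to 118543 for the highest Slco1a4 library. Taking 2 counts as 1 read pair, counting error was at most 3.74% of any value.

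**Figure D1:**
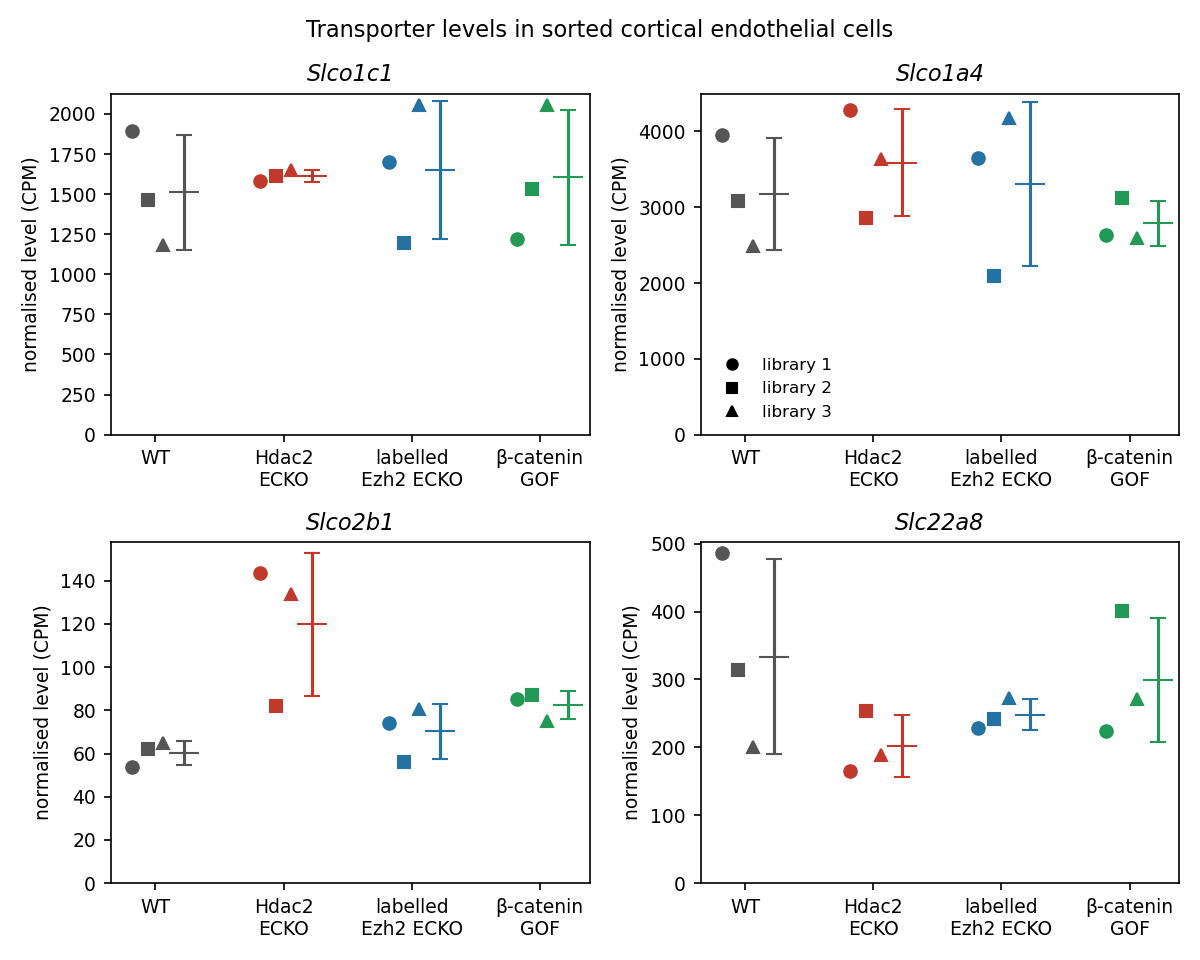
Normalised level (CPM, linear axis from 0) of each transporter in the 12 libraries, with symbols for replicates 1 to 3 and the mean ± SD beside them. Slco2b1 in Hdac2 ECKO (82.0 to 144 CPM) lies above all WT libraries (53.9 to 64.8 CPM), and the other 3 genes overlap WT in Hdac2 ECKO.

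One comparison asked whether these carriers change in the Hdac2 ECKO group, and a single member, Slco2b1, passed the test. Slco2b1 rose 1.99-fold in Hdac2 ECKO, while Slco1c1, Slco1a4 and Slc22a8 did not pass. Of all 12577 genes tested, 9.2% passed in this comparison (3.82% higher and 5.38% lower), so 1 of 4 is a count to be read against that share. No member passed against WT in libraries labelled Ezh2 ECKO, where 1.03% of genes passed, or in β-catenin GOF, where 0% passed. In β-catenin GOF the edgeR count of 0 stands beside 763 genes (6.07%) at an unadjusted p under 0.05. There DESeq2 made 38 calls, limma voom with quality weights 26 and edgeR with no filter on low counts 157. None of these genes was a member. The 3 comparisons share the WT libraries.

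Slco1c1, the thyroxine carrier, stood at 1895, 1461 and 1183 CPM in WT replicates 1, 2 and 3. In Hdac2 ECKO it stood at 1580, 1611 and 1653 CPM. These 3 values lay close together and inside the WT range. Libraries labelled Ezh2 ECKO held 1700, 1195 and 2054 CPM, and β-catenin GOF held 1223, 1533 and 2059 CPM. Every mutant group overlapped WT. The fold change against WT was 1.07 in Hdac2 ECKO (95% interval 0.706 to 1.61, edgeR adjusted p 0.84), 1.09 in libraries labelled Ezh2 ECKO (0.721 to 1.65, adjusted p 0.82) and 1.06 in β-catenin GOF (0.702 to 1.60, adjusted p 0.98). The intervals leave room for a change of about the size of the replicate spread in either direction, so that equal levels are not shown. The coefficient of variation was 2.25% in Hdac2 ECKO against 23.7%, 26.2% and 26.3% in WT, libraries labelled Ezh2 ECKO and β-catenin GOF. Without TMM scaling these were 7.04% against 29.2%, 37.2% and 29.9%.

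Slco1a4, the broad carrier of bile acids and steroid conjugates, stood at 3955, 3088 and 2487 CPM in WT. Hdac2 ECKO held 4278, 2859 and 3631 CPM, libraries labelled Ezh2 ECKO 3648, 2092 and 4172 CPM, and β-catenin GOF 2636, 3128 and 2593 CPM. No mutant group was separate from WT. The log2FC was 0.18 in Hdac2 ECKO (SE 0.29, edgeR adjusted p 0.70), 0.06 in libraries labelled Ezh2 ECKO (SE 0.29, adjusted p 0.93) and -0.19 in β-catenin GOF (SE 0.29, adjusted p 0.95). Slco1a4 has near copies in the same cluster: its coding sequence is 89.3% identical to Slco1a5, 86.7% to Slco1a1 and 85.0% to Slco1a6. Of its 50-base stretches, 2.60%, 2.18% and 1.25% also occur in those genes, so a small part of its reads could be shared. Slco1a5, the most abundant other Slco gene per kilobase, stood at 2.22 CPM per kilobase in WT, followed by Slco1a1 at 0.996 and Slco1b2 at 0.543, far below Slco1a4. No stretch of 50 bases of the other 3 members occurs in a listed family gene.

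Slco2b1, the carrier of steroid sulfates, stood at 53.9, 62.1 and 64.8 CPM in WT and at 144, 82.0 and 134 CPM in Hdac2 ECKO. All 3 Hdac2 ECKO libraries lay above all WT libraries, with replicate 2 nearest to them; 19.5% of genes tested were separate in that direction. The log2FC was 0.99 (SE 0.25, edgeR adjusted p 0.036), a fold of 1.99 with a 95% interval of 1.37 to 2.88. Libraries labelled Ezh2 ECKO held 74.1, 56.2 and 80.8 CPM (log2FC 0.22, SE 0.25, edgeR adjusted p 0.60) and overlapped WT. In β-catenin GOF, Slco2b1 stood at 85.1, 86.9 and 75.0 CPM, above all WT libraries, as were 6.83% of genes. That difference of 0.45 (SE 0.25) did not pass, with an unadjusted p of 0.091 and an edgeR adjusted p of 0.88.

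The Slco2b1 call in Hdac2 ECKO was lost when 1 of 5 libraries was left out: WT replicate 1 (log2FC 0.92, edgeR adjusted p 0.14), WT replicate 2 (1.01, adjusted p 0.10), Hdac2 ECKO replicate 1 (0.82, adjusted p 0.17), Hdac2 ECKO replicate 3 (0.88, adjusted p 0.14) and β-catenin GOF replicate 2 (0.99, adjusted p 0.053). In the same order, those 5 fits called 0, 0, 1, 0 and 324 genes in all, compared with 1157 with all libraries. A loss in a fit with 0 or 1 call was not particular to Slco2b1. The Slco2b1 call was also lost, at 0.76 and an adjusted p of 0.054, when a trend with gene length and GC content was removed. Among 3075 tested genes of 80% to 125% of its length the median log2FC was 0.29, and Slco2b1 lay at percentile 86.5 of them. Its sign was positive in all 22 alternatives, from 0.76 to 1.23.

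Sums of markers of other cells differed between the groups, and not in Hdac2 ECKO alone. The 10 pericyte and smooth muscle markers summed to 67.0 to 124 CPM in WT, 132 to 318 CPM in Hdac2 ECKO, 57.7 to 73.1 CPM in libraries labelled Ezh2 ECKO and 122 to 379 CPM in β-catenin GOF. Of these 10, 4 passed the test as higher in Hdac2 ECKO, where 3.82% of all genes did, and none lower. Their part in the Slco2b1 value was not tested. The 7 astrocyte markers summed to 24.0 to 36.2 CPM in WT, 50.8 to 76.1 CPM in Hdac2 ECKO, 44.2 to 79.8 CPM in the labelled Ezh2 ECKO libraries and 37.3 to 54.1 CPM in β-catenin GOF, and none of the 4 tested passed. Microglia and macrophages also use Slco2b1, and none of their 4 tested markers passed. The 9 markers listed summed to 70.6 to 97.3 CPM in WT, 39.3 to 62.1 CPM in Hdac2 ECKO, 52.0 to 90.1 CPM in the labelled Ezh2 ECKO libraries and 58.1 to 83.6 CPM in β-catenin GOF, lower in Hdac2 ECKO than in WT without overlap. The 8 of them reported here summed to 2.46 to 8.57, 1.94 to 4.80, 3.92 to 14.3 and 2.39 to 3.80 CPM in the same order, with overlap. P2ry12 was at 0 to 22 counts in WT and 0 to 14 in Hdac2 ECKO, Cx3cr1 at 0 to 6 and 0 to 12, and Tmem119 was at 0 in all 3 Hdac2 ECKO libraries. Endothelial markers summed to 14770 to 20795 CPM in WT, 11847 to 14046 CPM in Hdac2 ECKO, 14581 to 20438 CPM in the labelled Ezh2 ECKO libraries and 17549 to 20792 CPM in β-catenin GOF, and none of the 10 passed. Most of this sum was Ly6c1, and the other 9 summed to 4251 to 5347 CPM in WT and 4665 to 5404 CPM in Hdac2 ECKO, while the median log2FC of the 10 was 0.25. Haemoglobin genes took 3.61% to 5.46% of counts in WT and 0.0524% to 2.31% in Hdac2 ECKO, and with them left out the Slco2b1 log2FC was 0.99 (edgeR adjusted p 0.036). In such bulk samples fewer cells of a type and less RNA per cell cannot be told apart. The antisense RNA genes Gm15635 and Gm34280 share 471 and 78 exonic bases with Slco2b1; whether counting used strand was not stated, so their reads cannot be told apart from its own.

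**Figure D2:**
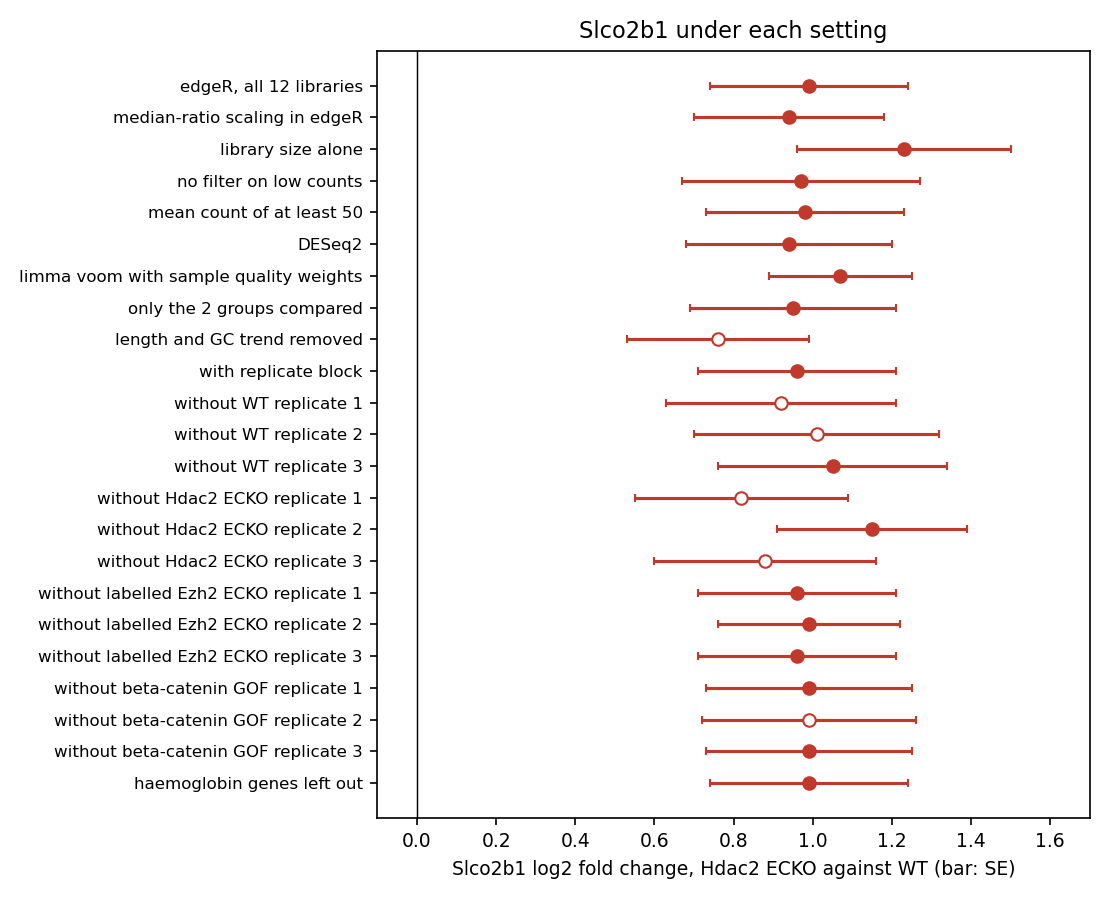
Slco2b1 log2FC of Hdac2 ECKO against WT (x axis, bars show 1 SE) under edgeR with all 12 libraries and under each of 22 alternatives (y axis). Filled points passed an adjusted p of 0.05; the 6 open points lie between 0.76 and 1.01, and all points lie above 0.

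Slc22a8, the organic anion exchanger, was the most variable member in WT, at 486, 314 and 201 CPM. Hdac2 ECKO held 165, 253 and 189 CPM, and its values overlapped those of WT through WT replicate 3. The log2FC was -0.72 (SE 0.32, edgeR adjusted p 0.13), with an unadjusted p of 0.0369 that 33.1% of genes also reached. Without WT replicate 3 it was -0.98 with an adjusted p of 0.043, and limma voom with quality weights gave -0.77 with an adjusted p of 0.013. These 2 settings called 1868 of 12591 and 5374 of 12577 genes in all. Slc22a8 passed in 1 of 12 fits with 1 library left out and in 1 of 10 other settings, which gave -0.78 to -0.48. Among 3136 tested genes of 80% to 125% of its length the median log2FC was -0.03, and Slc22a8 lay at percentile 20.4 of them. Libraries labelled Ezh2 ECKO held 228, 242 and 273 CPM (log2FC -0.43, SE 0.31, edgeR adjusted p 0.41). β-catenin GOF held 224, 401 and 271 CPM (log2FC -0.16, SE 0.31, edgeR adjusted p 0.97). Both groups lay within the WT range. Other sites that use Slc22a8 are the choroid plexus and the leptomeninges. Leptomeningeal and fibroblast markers summed to at most 4.78 CPM in any library, with Slc47a1 at 0 throughout. The choroid plexus markers summed to 1.14 to 2.60 CPM in WT, 2.80 to 112 CPM in Hdac2 ECKO, 24.1 to 182 CPM in libraries labelled Ezh2 ECKO and 0.554 to 33.6 CPM in β-catenin GOF. In the libraries above 20 CPM most of the sum was Ttr, and Otx2 was at 0 in 9 of the 12 libraries. Their part in the Slc22a8 values was not tested.

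**Figure D3:**
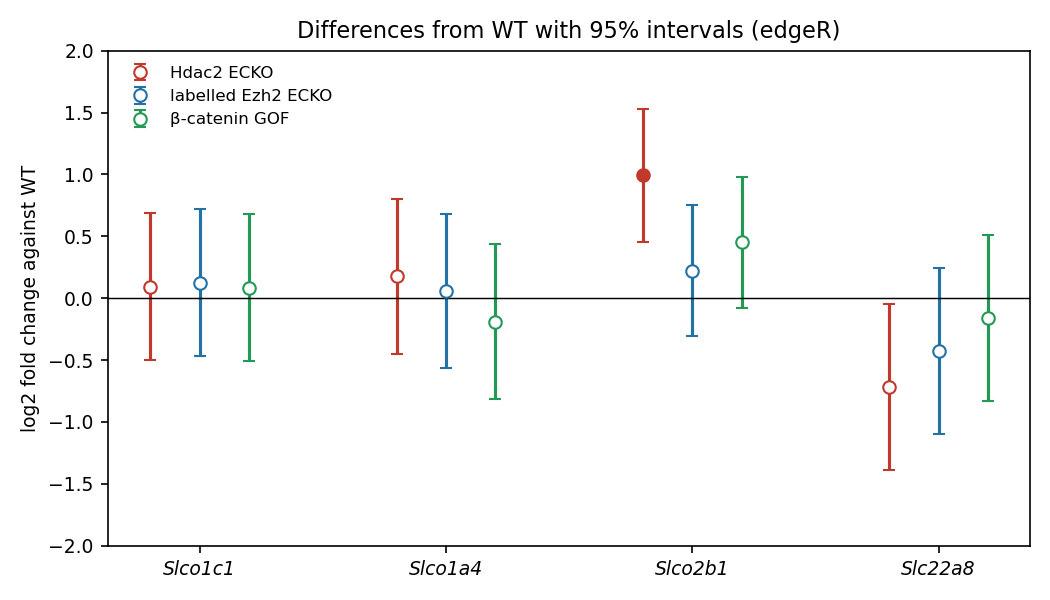
Log2FC against WT (y axis) of the 4 transporters in each mutant, with 95% intervals from edgeR. The filled point, Slco2b1 in Hdac2 ECKO at 0.99, passed an adjusted p of 0.05; the other 11 did not, and 10 of those 11 intervals include 0, the exception being Slc22a8 in Hdac2 ECKO at -0.72.

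The mutants were then set against each other. Between Hdac2 ECKO and the labelled Ezh2 ECKO libraries, Slco2b1 differed by 0.77 (SE 0.25) with no overlap, and it did not pass (unadjusted p 0.0077, edgeR adjusted p 0.50). In that comparison 0.0239% of genes passed, 8.19% reached an unadjusted p under 0.05 and 7.78% were separate with the higher values in Hdac2 ECKO. Between β-catenin GOF and Hdac2 ECKO, Slco2b1 differed by -0.54 (SE 0.25, edgeR adjusted p 0.23) and Slc22a8 by 0.56 (SE 0.31, adjusted p 0.31), where 0.0716% of genes passed. Both passed by limma voom with quality weights, at -0.61 (adjusted p 0.022) and 0.67 (adjusted p 0.044). That setting called 3339 of all 12577 genes in this comparison. Between β-catenin GOF and libraries labelled Ezh2 ECKO, where 0.0636% of genes passed, no member passed, with adjusted p from 0.70 to 0.96. Without labelled Ezh2 ECKO replicate 2, Slco1c1, Slco1a4, Slco2b1 and Slc22a8 in the other 2 libraries of that group stood at log2FC values of 0.31, 0.30, 0.36 and -0.41 against WT, with edgeR adjusted p of 0.45, 0.45, 0.32 and 0.42. Slco2b1 then differed by 0.63 (SE 0.25, edgeR adjusted p 0.79) between Hdac2 ECKO and that group, and by 0.99 (adjusted p 0.012) between Hdac2 ECKO and WT. Without that library 2328 genes in all passed for that group against WT, compared with 129 with it, and none of the 4 carriers was among them. That Slco2b1 passed against WT in a single mutant is therefore not shown to be a difference between mutants.

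Ratios between members within a library do not depend on how libraries are scaled. In WT the ratio of Slco1c1 to Slco1a4 per kilobase was 0.589 ± 0.0036 (SD, n = 3), while the coefficients of variation of the 2 genes there were 23.7% and 23.2%. It ranged from 0.457 to 0.697 in Hdac2 ECKO, from 0.576 to 0.706 in libraries labelled Ezh2 ECKO and from 0.574 to 0.982 in β-catenin GOF. The mean ratios did not separate, with exact two-sided permutation p of 0.70, 0.40 and 0.50 against WT. Slco1a4 stood 35.7 to 68.2 times above Slco2b1 in WT, 25.2 to 32.4 times in Hdac2 ECKO, 34.6 to 48.0 times in libraries labelled Ezh2 ECKO and 28.8 to 33.4 times in β-catenin GOF. Hdac2 ECKO and β-catenin GOF were both separate from WT. The ratio of Slco2b1 to Slc22a8 was 0.0727 to 0.211 in WT and 0.213 to 0.570 in Hdac2 ECKO, a geometric mean 3.05 times higher. The ratio of Slco1c1 to Slc22a8 was 1.71 times higher in Hdac2 ECKO, also without overlap. With 3 libraries against 3 the exact permutation test cannot go below 0.10, the value reached by these 4 ratio differences, and over the 18 ratio tests their adjusted p was 0.45. The 18 tests reuse the same 4 genes and the same WT libraries. How often ratios of other gene pairs separate is not given here, so this count cannot be read against such a share.

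**Figure D4:**
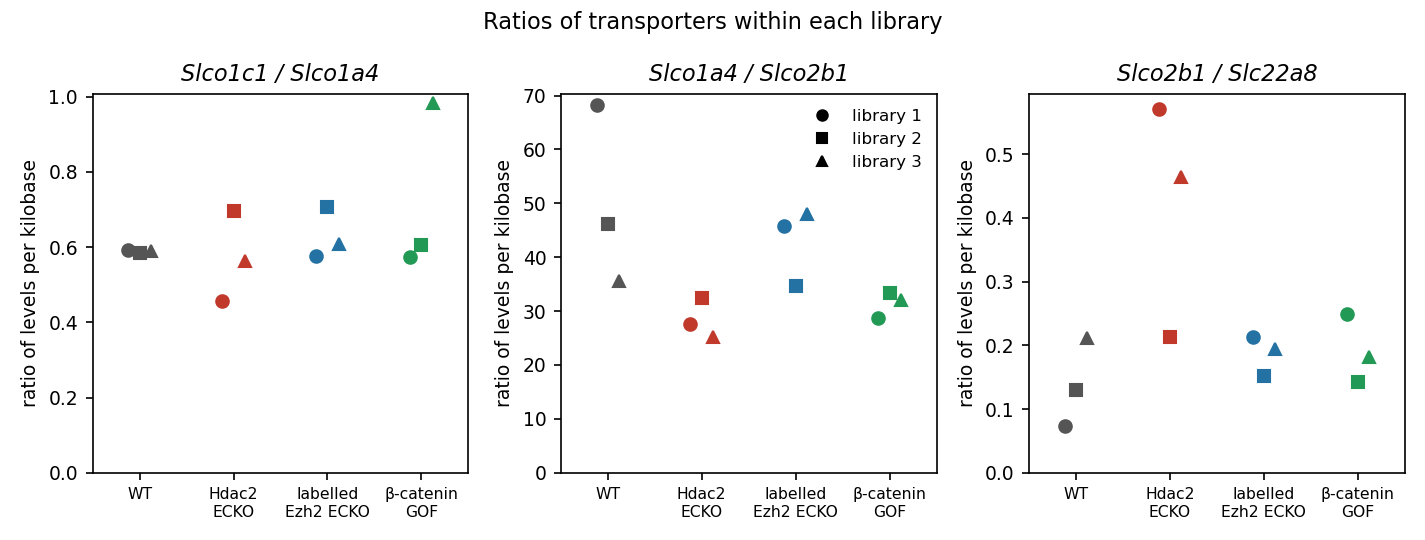
Ratio of levels per kilobase (y axes, linear from 0) for 3 pairs of transporters in the 12 libraries, with symbols for replicates 1 to 3. The 3 WT points for Slco1c1 over Slco1a4 coincide near 0.589, and the Slco2b1 to Slc22a8 ratio is highest in Hdac2 ECKO replicates 1 and 3.

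Across the 12 libraries, which share their depth and scaling, log2 levels of Slco1c1 and Slco1a4 gave a Pearson's r of 0.637 (permutation p 0.0278, adjusted over 6 pairs 0.122) and a Spearman's rho of 0.538 (permutation p 0.0743, adjusted 0.354). Without the 2 libraries farthest from the median of Slco1c1, r was 0.365. Leaving out extremes narrows the range of that gene and by itself tends to lower r. Deviations from the group means gave r = 0.677. Slco2b1 and Slc22a8 gave r = -0.596 (permutation p 0.0408, adjusted 0.122) and rho = -0.483 (permutation p 0.118, adjusted 0.354), and r was -0.231 without Hdac2 ECKO replicates 1 and 3. With scaling by library size the 2 pairs gave r = 0.804 and r = -0.215. No pair of the 6 passed after adjustment.

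The genes whose log2 level ran most like each member over the 12 libraries are given as a description, chosen as the 3 highest Pearson's r among 12576 genes. For Slco1c1 these were Etv5 (r = 0.911), Adgrl4 (0.884) and Pacs1 (0.880). Adgrl4, an endothelial adhesion receptor, averaged 1131 ± 305 CPM in WT against 1060 ± 48.9 CPM with Hdac2 ECKO, whereas Etv5 averaged 0.611 CPM over the libraries. For Slco1a4 they were Casp2 (0.953), Mtus1 (0.938) and Zfp182 (0.931), and for Slc22a8 they were Gm28635 (0.925), Prpsap1 (0.920) and Hadh (0.915). For Slco2b1 they were Rnf216 (0.956), Mertk (0.943) and Wwp1 (0.932). Mertk, a receptor tyrosine kinase for apoptotic cells, averaged 31.1 ± 6.41 CPM in WT against 68.8 ± 14.7 CPM with Hdac2 ECKO. Rnf216 and Wwp1, both ubiquitin ligase genes, averaged 20.4 ± 1.46 and 23.6 ± 1.91 CPM in WT, and 36.5 ± 6.51 and 45.0 ± 13.3 CPM with Hdac2 ECKO. Prpsap1 and Hadh, a mitochondrial fatty acid oxidation enzyme, averaged 40.2 ± 9.82 and 91.6 ± 42.2 CPM in WT, and 25.1 ± 9.14 and 39.2 ± 6.07 CPM with Hdac2 ECKO.

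Partners of the thyroid hormone pathway were read next from lists of textbook members. Of 8 transport partners tested, none passed in any mutant against WT, and the median log2FC was 0.44, -0.47 and 0.21 in Hdac2 ECKO, libraries labelled Ezh2 ECKO and β-catenin GOF, beside 0.10, 0.05 and 0.01 over all genes tested. In Hdac2 ECKO 1 of them passed as higher with the length and GC trend removed and 2 with library size alone. Of all 12577 genes, 273 and 1469 passed there as higher in these settings. The labelled Ezh2 ECKO median was -0.18 with the length and GC trend removed. Slc3a2 and Slc7a5, the 2 chains of the amino acid transporter LAT1 that also carries thyroid hormone, were the list's most abundant genes per kilobase. Slc7a5 averaged 115 ± 8.77 CPM in WT against 178 ± 31.7 CPM with Hdac2 ECKO (log2FC 0.63, SE 0.24, edgeR adjusted p 0.085), and Slc3a2 averaged 341 ± 152 and 206 ± 66.0 CPM (-0.73, SE 0.38, adjusted p 0.19). Ttr, the choroid plexus thyroxine carrier, was at 18 to 32 counts in WT and ranged from 0 to 4614 counts among the mutant libraries, and did not pass.

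Deiodinase genes were nearly silent in these cells: Dio3 was at 0 counts in every library, and Dio1 and Dio2 reached at most 2 counts. The selenoprotein factor gene Secisbp2, the 1 listed gene of that group that was tested, averaged 9.98 ± 2.56 CPM in WT against 19.4 ± 3.91 CPM with Hdac2 ECKO (log2FC 0.96, SE 0.32, edgeR adjusted p 0.062). None of 9 receptors and cofactors passed in any mutant, with medians of 0.71, 0.09 and 0.22. With library size alone 3 passed as higher in Hdac2 ECKO, as did 1469 of all 12577 genes. With the length and GC trend removed the medians were 0.04, -0.06 and 0.00. Thra, the most abundant receptor, averaged 35.6 ± 10.5 CPM in WT, and 33.7 ± 8.07, 22.7 ± 2.34 and 30.1 ± 11.2 CPM in Hdac2 ECKO, labelled Ezh2 ECKO and β-catenin GOF libraries. Ncor1, the corepressor that binds unliganded receptors, averaged 111 ± 14.5 CPM in WT against 181 ± 19.4 CPM with Hdac2 ECKO (log2FC 0.71, SE 0.22, edgeR adjusted p 0.056).

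Among 8 genes known to respond to thyroid hormone, 1 rose and 1 fell in Hdac2 ECKO, 1 rose in libraries labelled Ezh2 ECKO, and none passed in β-catenin GOF. Over all genes 3.82% passed as higher and 5.38% as lower in Hdac2 ECKO, and 1.03% passed in the labelled Ezh2 ECKO libraries. Klf9, a transcription factor induced by thyroid hormone and by glucocorticoid, stood at 70.0, 80.5 and 151 CPM in WT and at 263, 159 and 257 CPM in Hdac2 ECKO, without overlap. Its log2FC was 1.17 (SE 0.33, edgeR adjusted p 0.043). Bcl3, a nuclear partner of NF-kappaB, fell there, with means of 6.89 ± 2.63 CPM in WT against 2.23 ± 0.122 CPM (log2FC -1.63, SE 0.45, adjusted p 0.041). Means in libraries labelled Ezh2 ECKO were close to those of Hdac2 ECKO, at 217 ± 79.9 CPM for Klf9 and 2.24 ± 0.875 CPM for Bcl3. In β-catenin GOF they were 125 ± 9.58 and 6.12 ± 1.08 CPM. Neither gene passed against WT in these groups, so the calls are not shown to be particular to Hdac2 ECKO. Aldh1a1, a retinaldehyde dehydrogenase, stood at 5.69, 6.84 and 7.83 CPM in WT and 30.9, 32.0 and 26.3 CPM in libraries labelled Ezh2 ECKO (log2FC 2.13, SE 0.40, edgeR adjusted p 0.045). Set against those same libraries, Hdac2 ECKO was lower for Aldh1a1 (log2FC -2.64, edgeR adjusted p 0.035). That call was lost with library size alone (-2.40, adjusted p 0.065) and without WT replicate 2 or any 1 library of the 2 groups compared (adjusted p up to 0.22). Thrsp, the list's second gene by level per kilobase, averaged 13.4 ± 1.48 CPM in WT against 13.1 ± 8.37 CPM with Hdac2 ECKO. The list median was -0.40, -0.19 and 0.11 in the 3 mutants; the first was -0.18 with library size alone, and the second turned to 0.06 with the length and GC trend removed.

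Other family members and the efflux side of organic anion transport were examined in the same way. None of 7 other Slco genes and none of 8 other Slc22 genes tested passed in any mutant, and 4 of the 11 other Slco and 14 of the 22 other Slc22 genes in the table were below the count minimum. Slc22a5, the carnitine carrier, was the most abundant other Slc22 gene per kilobase, averaging 18.1 ± 5.26 CPM in WT against 30.4 ± 8.27 CPM with Hdac2 ECKO (edgeR adjusted p 0.18). Slc22a21, the next, averaged 11.6 ± 5.74 CPM in WT against 19.8 ± 7.37 CPM with Hdac2 ECKO (edgeR adjusted p 0.23). Medians of the other Slco genes were 0.70, -0.14 and 0.08 in Hdac2 ECKO, labelled Ezh2 ECKO and β-catenin GOF, and with the length and GC trend removed the first was 0.025 and the third turned to -0.11. In Hdac2 ECKO 1 of the other Slc22 genes passed as higher with library size alone, as did 1469 of all 12577 genes. Medians of the other Slc22 genes were 0.61, 0.43 and 0.12; with Slc22a2, at 0 in all WT libraries, set at its bound of 3 counts per library the second was 0.31. Crym and Hpgd, at 0 in all β-catenin GOF libraries, moved no list median when set at that bound. Of 9 efflux partners none passed, although 6 were separate and higher in Hdac2 ECKO than in WT, as were 19.5% of all genes. With scaling by library size alone 3 passed there as higher, beside 1469 of all 12577 genes. Abcg2, the breast cancer resistance protein gene, averaged 1985 ± 278 CPM in WT against 2283 ± 692 CPM with Hdac2 ECKO (log2FC 0.20, SE 0.29, edgeR adjusted p 0.65). Abcb1a, the P-glycoprotein gene, stood at 553, 575 and 608 CPM in WT and at 922, 828 and 853 CPM in Hdac2 ECKO (log2FC 0.58, SE 0.23, edgeR adjusted p 0.094). Medians of the efflux list were 0.61, 0.22 and 0.26 in the 3 mutants, beside 0.10, 0.05 and 0.01 over all genes, and the first was 0.29 with the length and GC trend removed.

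Regulators and the phase 2 and related enzymes held 1 call each, of 10 and 7 genes tested, both in Hdac2 ECKO, where 9.2% of all genes passed. Among the nuclear receptors and sensors, Arnt, the dimerisation partner of the aryl hydrocarbon receptor, rose to 26.5 ± 3.02 CPM from a WT mean of 11.6 ± 1.72 CPM (log2FC 1.19, SE 0.30, adjusted p 0.036). Nr3c1, the glucocorticoid receptor, stood at 154 ± 55.0 and 280 ± 47.2 CPM (0.86, SE 0.29, adjusted p 0.067), and Nfe2l2, the oxidative stress sensor NRF2, at 142 ± 40.0 and 95.2 ± 21.8 CPM (-0.58, SE 0.27, adjusted p 0.15). Among the phase 2 and related enzymes, Ephx1, the microsomal epoxide hydrolase, fell from 198 ± 93.4 to 69.6 ± 39.2 CPM (-1.51, SE 0.41, edgeR adjusted p 0.040), and Hdac2 ECKO replicate 2 at 113 CPM overlapped WT replicate 3 at 110 CPM. Arnt and Ephx1 averaged 18.5 ± 6.39 and 67.0 ± 22.4 CPM in libraries labelled Ezh2 ECKO, where the Ephx1 mean was close to that of Hdac2 ECKO. In β-catenin GOF they averaged 13.4 ± 2.11 and 113 ± 19.4 CPM, and neither passed against WT in these groups. Sult1a1, a phenol sulfotransferase and the second enzyme by level per kilobase, averaged 68.3 ± 19.8 CPM in WT against 62.0 ± 14.5 CPM with Hdac2 ECKO. Medians over the enzymes were -0.18, -0.26 and -0.52 in Hdac2 ECKO, labelled Ezh2 ECKO and β-catenin GOF, and the first turned to 0.07 with library size alone. Over the receptors and sensors they were 0.05, 0.28 and 0.22; the first ran from -0.01 with median-ratio scaling to 0.29 with library size alone, and the second was 0.09 with the length and GC trend removed. With the length and GC trend removed, Klf9, Bcl3, Arnt and Ephx1 did not pass, at log2FC values of 1.04, -0.99, 0.70 and -1.06 and edgeR adjusted p of 0.059, 0.12, 0.085 and 0.059. With library size alone, Bcl3 (-1.40, adjusted p 0.052) and Ephx1 (-1.25, adjusted p 0.056) did not pass either. All 4 calls were also lost without WT replicate 1 or 2, Hdac2 ECKO replicate 1 or 3, or β-catenin GOF replicate 2, and those of Klf9, Bcl3 and Ephx1 without β-catenin GOF replicate 1 or 3. Without those WT or Hdac2 ECKO libraries 0 or 1 of all genes passed, so these losses were not particular to the genes named. Without β-catenin GOF replicate 1, 2 or 3 the genes passing were 529, 324 and 615, compared with 1157 with all libraries. The Aldh1a1 call against WT was lost without WT replicate 1 or 2, Hdac2 ECKO replicate 3, labelled Ezh2 ECKO replicate 1 or 3, or β-catenin GOF replicate 2, with log2FC values from 2.02 to 2.24. Those fits called 2 to 7 genes in all, compared with 129 with all libraries.

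**Figure D5:**
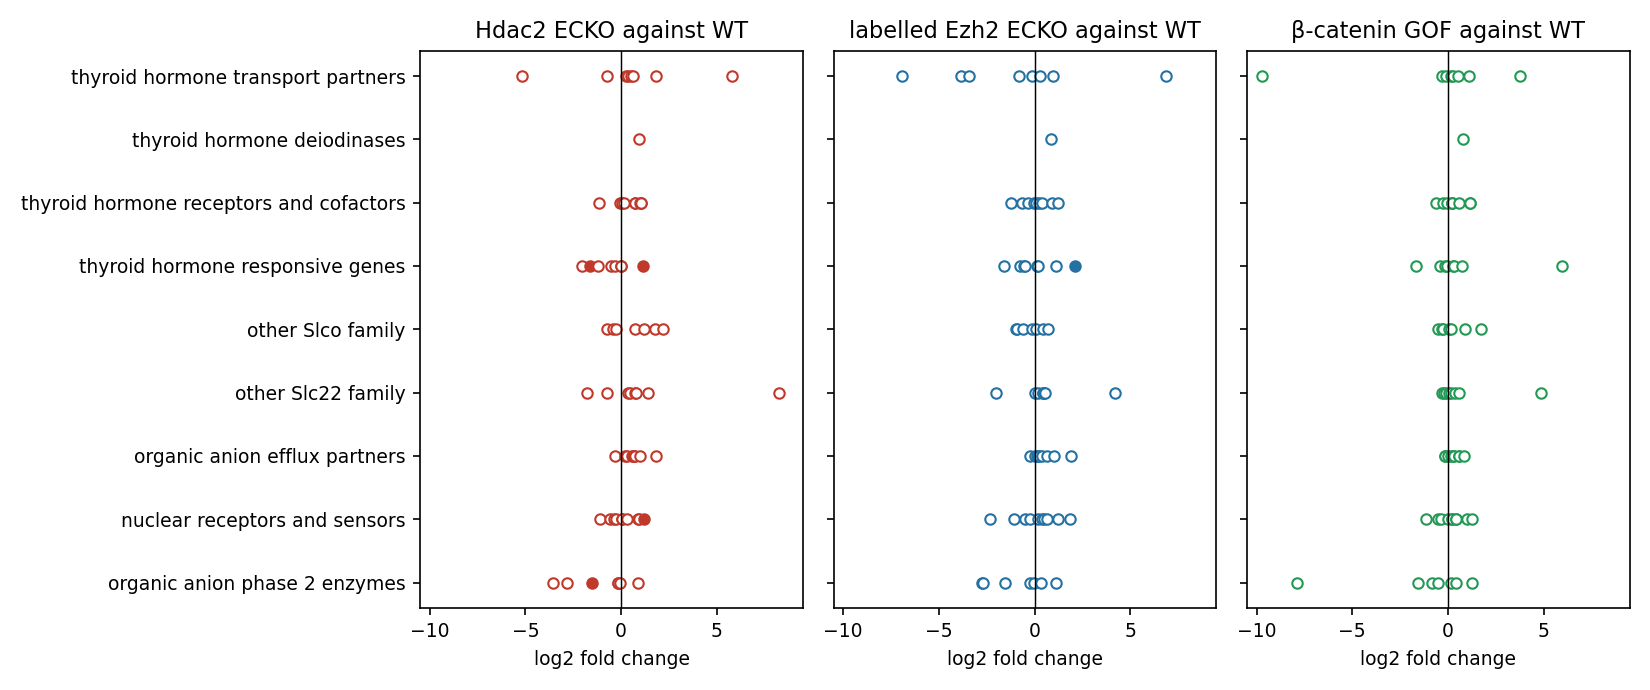
Log2FC against WT (x axis) of every tested gene of the 9 partner lists (y axis) in the 3 mutants. Filled points passed an edgeR adjusted p of 0.05: 4 in Hdac2 ECKO, 1 in libraries labelled Ezh2 ECKO and none in β-catenin GOF; points beyond 5 in size belong to genes with few or no counts in 1 of the groups.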

How the data were processed

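RNA from FACS-sorted cortical endothelial cells was amplified with SMART-Seq v4 PLUS and sequenced as paired ends, per the labels' protocols. The deposited table gives whole-number read counts per gene for each of 12 libraries, with gene positions and lengths in the file headers. Its title calls the values normalized, but they are whole and library totals differ, so they were used as raw counts. Even numbers made up 79.5% to 84.0% of values from 10 to 50, so both mates of a pair appear to have been counted, and counting errors and floors cover counting error only. FastQC, cutadapt, STAR, featureCounts and DESeq2 and the build mm10 are named in the submitters' processing notes; versions, annotation and strand setting are not given in the sources used here.

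Counts were scaled by TMM and fitted in 1 quasi-likelihood model over all 4 groups with edgeR 4.0.16 in R 4.3.3, on the 12577 genes whose mean count reached 10. P-values were adjusted over all of them by Benjamini-Hochberg with a threshold of 0.05, and SE is the size of the log2 fold change over the root of F. The model was tested on simulated counts with 200 of 12577 genes changed in Hdac2 ECKO. It recovered 12% of 2-fold and 62% of 4-fold changes, and 5.13% of its calls were false. A gene that did not pass may therefore still differ by 2-fold. These rates hold for the simulated share of changed genes and may differ in Hdac2 ECKO against WT, where 9.2% of genes passed. Alternatives used limma 3.58.1 (voom with quality weights), DESeq2 1.42.0, other scalings and filters, only the 2 groups compared, a length and GC trend removed, a replicate block, each library left out and, chosen after seeing the data, haemoglobin genes left out. Exact permutation tests served ratios, and permutation tests with 100000 resamples served correlations. Levels per kilobase use the table's gene length. Genes were placed on GRCm38 with GENCODE M21, where the table's positions matched for 98.4% of genes.

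Members and lists were chosen with earlier results of these data known. Genes named are the members, their 3 most similar genes each, the targeted genes, and list genes that passed or were among the most abundant of their list. The deiodinases, genes at or near 0 in a group, near copies of Slco1a4 and single marker genes were named after their values were seen. Replicate numbers are in the labels. Deviations of same-numbered Hdac2 ECKO and labelled Ezh2 ECKO libraries correlated at 0.157, 0.377 and 0.106 over genes. The sources used here state no pairing, and the main fit used none. A replicate block, fitted as an alternative, changed no member's call between these groups. Some items of the lists are not reported by name here.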

Additional observations from a re-analysis of the deposited data

How the results depend on the processing

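In Hdac2 ECKO against WT, Slco2b1 kept its sign in 22 of 22 alternatives. It passed in 9 of the 10 other than fits with 1 library left out, with log2 fold changes of 0.76 to 1.23. The exception was removal of the length and GC trend (0.76, adjusted p 0.054). With 1 library left out it ranged from 0.82 to 1.15, with adjusted p from 0.012 to 0.17, and passed in 7 of 12 fits. A fit that leaves 2 libraries in a group takes their spread from all groups. Slc22a8 did not pass there in edgeR with all libraries, passed with limma voom with quality weights (-0.77) and in edgeR without WT replicate 3, and ranged from -0.98 to -0.35 with 1 library left out. With the length and GC trend removed, the sign turned for Slco1c1 (-0.09) and Slco1a4 (-0.26) in Hdac2 ECKO against WT. It also turned for Slco1a4 (-0.29) in libraries labelled Ezh2 ECKO against WT, for Slco1c1 (0.20) and Slco1a4 (0.07) in β-catenin GOF against Hdac2 ECKO, and for both (0.10 each) in β-catenin GOF against libraries labelled Ezh2 ECKO. None of these passed under either setting. Between Hdac2 ECKO and labelled Ezh2 ECKO, Slco1c1 turned with library size alone (0.16) and Slco1a4 with limma voom (-0.01). Slco1c1 in β-catenin GOF against Hdac2 ECKO turned with median-ratio scaling (0.03), no filter (0.01), DESeq2 (0.03) and only the 2 groups (0.03). There Slco2b1 (-0.61) and Slc22a8 (0.67) passed by limma voom, which called 3339 genes in all. The cause was not tested.

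With 1 library left out, Slco1c1 ranged over -0.06 to 0.29 in Hdac2 ECKO, -0.08 to 0.32 in labelled Ezh2 ECKO and -0.14 to 0.28 in β-catenin GOF, each against WT. Slco1a4 in labelled Ezh2 ECKO ranged from -0.16 to 0.30 and Slc22a8 in β-catenin GOF from -0.43 to 0.21. Between Hdac2 ECKO and labelled Ezh2 ECKO the ranges were -0.22 to 0.14 for Slco1c1 and -0.12 to 0.30 for Slco1a4. Slco1c1 ranged from -0.23 to 0.16 in β-catenin GOF against Hdac2 ECKO and from -0.26 to 0.15 against labelled Ezh2 ECKO, where Slc22a8 ranged from 0.00 to 0.44. Of the 16 group means, Slco1c1 in Hdac2 ECKO moved by more than 1 SD without TMM scaling, from 1615 to 1817 CPM.

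With the replicate block Slco2b1 in Hdac2 ECKO was 0.96 (edgeR adjusted p 0.026), and no member's call changed in any comparison. The block moved the count of genes called from 1157 to 1832 in Hdac2 ECKO and from 129 to 536 in labelled Ezh2 ECKO against WT. Deviations of same-numbered libraries correlated at -0.178 to 0.0944 and -0.15 to 0.0038 in these 2 comparisons. Whether they share more than a number was not tested. Counts of called genes moved widely. In Hdac2 ECKO against WT they ran from 0 (without WT replicate 1, WT replicate 2 or Hdac2 ECKO replicate 3) to 5374 (limma voom). Scaling by library size alone moved the median of all genes from 0.10 to 0.34, and higher calls from 480 of 1157 to 1469 of 1826. Counting error, with 2 counts taken as 1 read pair, was at most 3.74% for any member.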
